A study of Bos taurus with 12 samples.

Results

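The genes described here carry glucose through glycolysis to pyruvate and decide whether pyruvate becomes lactate or enters the mitochondrion. They were chosen by symbol, not by their values: 33 genes of 17983 distinct gene rows in the deposited count table. Every one had a single row there. After a filter on low counts 31 of the 33 could be tested, and the other 2 were PFKFB1, with 12 reads over all 12 libraries, and SLC16A7, with 68. The material was bovine cumulus-oocyte complexes, each an oocyte inside its layer of cumulus cells, matured in vitro in groups of 50. The 6 Nanoplastics samples were matured in medium holding polystyrene particles of 50 nm at 3 µg/mL, and the 6 Control samples in medium without particles. Polyadenylated RNA of whole complexes was sequenced, so oocyte and cumulus transcripts were measured together, and fewer cells of a type cannot be told apart from less RNA per cell. The series describes 6 independent replicates from 3 batches of bovine material but does not place each sample in a batch, and no values within a batch could be computed. No breed, age or treatment of the donor animals is given in the sources used here.

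Glycolysis splits glucose into pyruvate in a preparatory phase that spends ATP and a payoff phase that returns it, and lactate dehydrogenase can then reduce pyruvate to lactate. Monocarboxylate transporters move lactate and pyruvate across the cell membrane, the mitochondrial pyruvate carrier brings pyruvate inwards, and pyruvate dehydrogenase commits it to the citric acid cycle unless a kinase switches the enzyme off. In the cumulus-oocyte complex the cumulus cells take up most of the glucose and pass pyruvate and lactate to the oocyte, which itself has little glycolytic capacity. Many of these genes are textbook targets of the hypoxia-inducible factors, which raise glycolysis when oxygen is short.

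Library totals ran from 14167578 to 18684140 counts in Nanoplastics and from 15873865 to 20008464 in Control libraries. Levels are given in CPM, the count scaled by library size with TMM factors. Of 15 cumulus and granulosa markers 15 were tested, and their summed level was 18730 to 22390 CPM in Nanoplastics and 18210 to 21180 CPM in Control libraries. Of 14 oocyte markers 11 were tested, with a sum of 968 to 1215 CPM in Nanoplastics and 988 to 1232 CPM in Control libraries. Transcripts of both marker lists were therefore present in every library. Single genes made up much of each sum. VCAN averaged 10200 CPM in Nanoplastics and 10070 CPM in Control libraries, and UCHL1 738.5 CPM in Nanoplastics and 721.1 CPM in Control libraries. The oocyte gene BMP15 averaged 60.6 CPM in Nanoplastics and 71.2 CPM in Control libraries. Leukocyte markers summed to 5.64 to 14.9 CPM in Nanoplastics and 4.50 to 8.83 CPM in Control libraries, and 2 of their 8 genes were expressed enough to test. Skeletal muscle markers, included because several enzymes of the pathway have a muscle form, summed to 1.52 to 2.71 CPM in Nanoplastics and 1.28 to 2.21 CPM in Control libraries.

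The members took 1.39% ± 0.406 of all counts in Nanoplastics and 1.15% ± 0.314 in Control libraries (SD, n = 6 each). The share was highest in Nanoplastics 1 at 2.03% and lowest in Control 5 at 0.756%, and between them the groups overlapped, with 1.02% in Nanoplastics 3 and 1.52% in Control 2. Within each group some libraries were high and some low for the same genes.

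**Figure D1:**
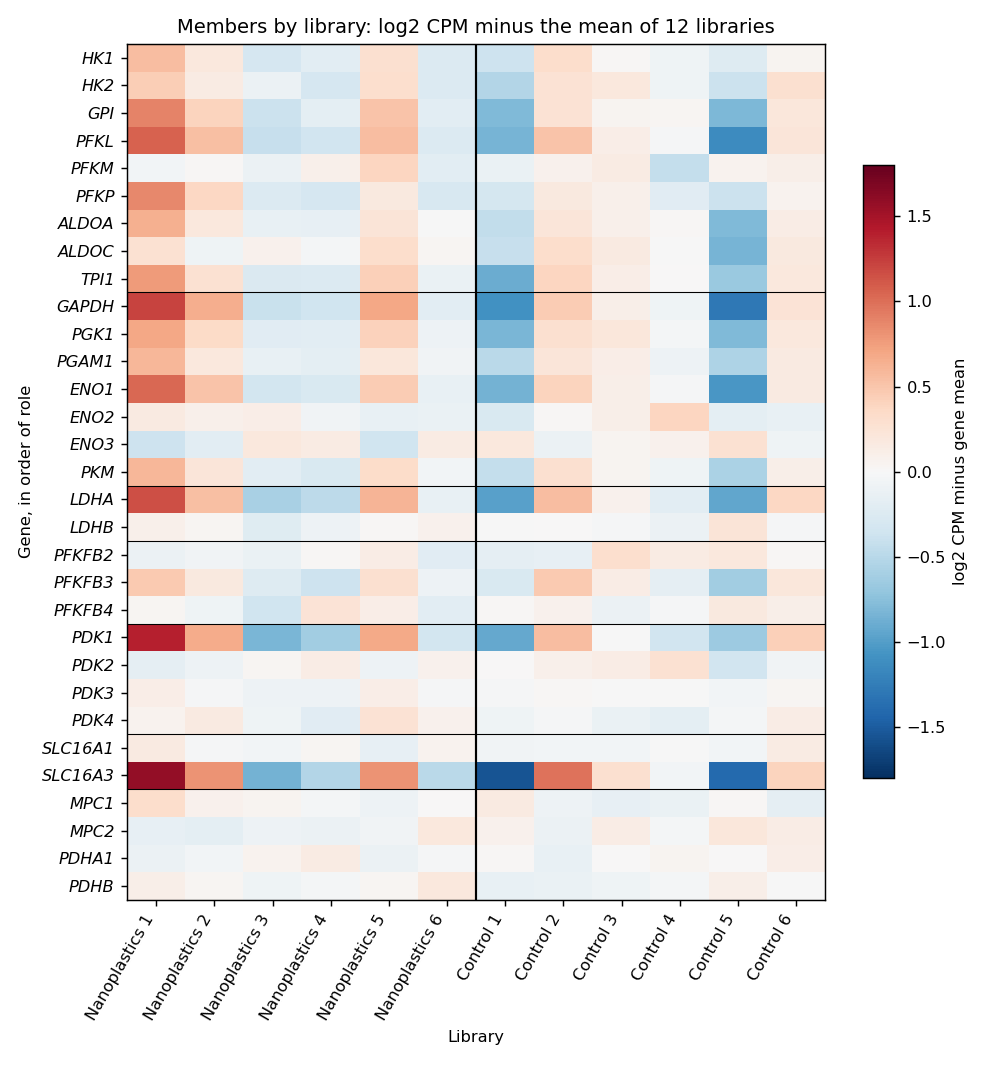
Log2 CPM of the 31 tested members in each of 12 libraries, as the difference from the gene's mean over all libraries; rows are genes in order of role with lines between roles, and the vertical line separates Nanoplastics from Control. Nanoplastics 1, 2 and 5 and Control 2 and 6 are mostly high, Control 1 and 5 mostly low, and the rows of LDHB, PDK3, SLC16A1 and the pyruvate entry genes are close to flat.

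The comparison of Nanoplastics with Control asked whether maturation with the particles changed transcripts of this pathway. By edgeR, with a quasi-likelihood test and p-values adjusted by Benjamini-Hochberg over 12311 genes, 0 of the 31 tested members passed an adjusted p of 0.05, beside 0% of all genes tested. At an unadjusted p under 0.05 there were likewise 0 members, beside 1.07% of all genes higher and 1.03% lower, and DESeq2 and limma-voom called 0 members as well. The smallest adjusted p of a member was 0.999. For 7 members at least 3 Nanoplastics libraries were above every Control library, beside 8.65% of all genes tested, and for 0 members did the groups not overlap at all, beside 0.0731%. Log2 fold changes (Nanoplastics over Control) were positive for 24 members and negative for 7, with a median of 0.11, while 50.5% of all tested genes were positive. The 95% interval included 0 for all 31, and for 20 it lay within 1.5-fold in either direction. The positive lean varied with the library left out. Without Nanoplastics 1 there were 18 positive members and a median of 0.06. Without Control 1 there were 21 (median 0.09), and without Control 2 there were 24 (median 0.18). With any other library left out at least 22 were positive. Without both Nanoplastics 1 and Control 5, a choice made after the data were seen, there were 16 positive members and a median of 0.00. These libraries had the highest and lowest member share, so leaving out both lowers the lean by design and does not test it.

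**Figure D2:**
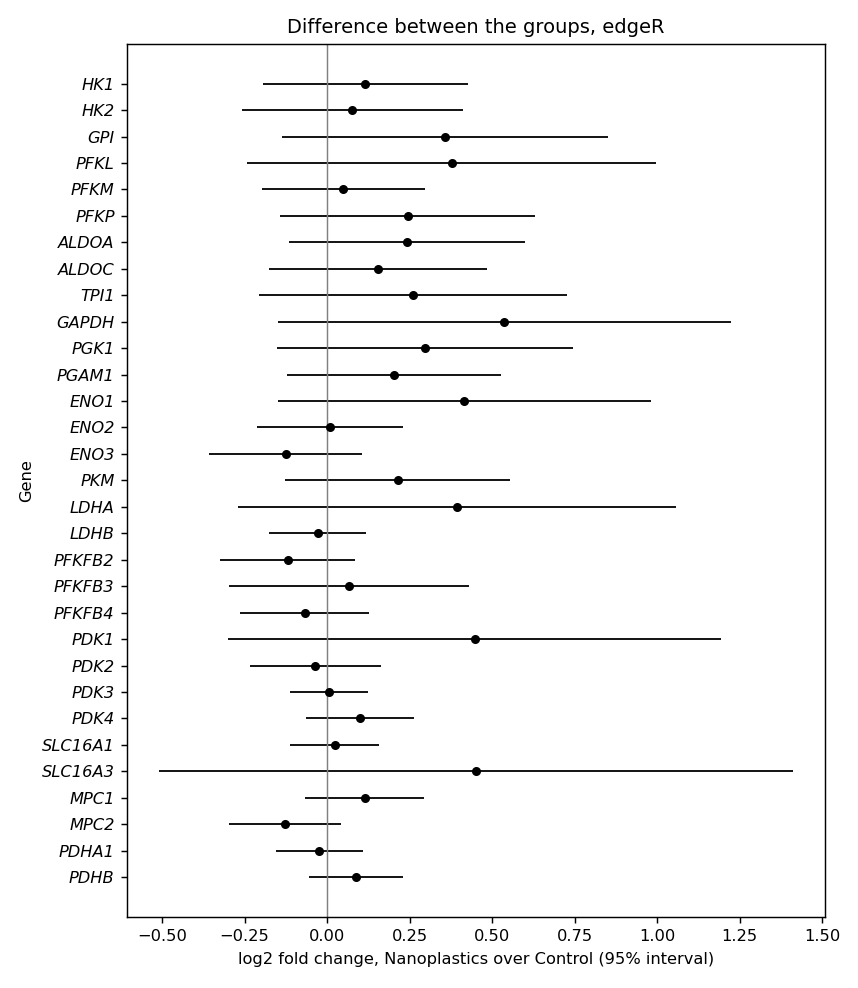
Log2 fold change of each tested member, Nanoplastics over Control, from edgeR (point) with its 95% interval (bar), 6 libraries a group. Every interval includes 0; the widest belong to SLC16A3, PDK1, GAPDH and LDHA.

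In the preparatory phase, all 9 members had positive log2 fold changes with a median of 0.24, and none passed. PFKL, the liver-type phosphofructokinase of the committed step, had 313, 480 and 871 CPM (lowest, median, highest) in Nanoplastics and 191, 433 and 600 CPM in Control libraries. The 3 Nanoplastics libraries above every Control library were replicates 1, 2 and 5, and the other 3 lay below the Control median. Its log2 fold change was 0.38 (95% interval −0.24 to 1.00), and 0.16 without Nanoplastics 1. GPI, which converts glucose-6-phosphate to fructose-6-phosphate, split in the same way, with 245, 355 and 600 CPM in Nanoplastics and 184, 332 and 386 CPM in Control libraries. HK2, the inducible hexokinase that traps glucose in the cell, overlapped almost fully, with 671, 843 and 1119 CPM in Nanoplastics and 573, 864 and 1003 CPM in Control libraries. HK1, the housekeeping hexokinase, had a log2 fold change of 0.12 (−0.19 to 0.43). The aldolases ALDOA and ALDOC, which cleave the sugar, had 0.24 (−0.12 to 0.60) and 0.15 (−0.18 to 0.48), and the triose isomerase TPI1 had 0.26 (−0.21 to 0.73). The platelet-type phosphofructokinase PFKP had 0.24 (−0.14 to 0.63) and the muscle-type PFKM 0.05 (−0.20 to 0.30). Without Nanoplastics 1 the values were 0.18 for GPI, 0.12 for ALDOA, 0.11 for TPI1, 0.05 for PFKP, −0.0034 for HK1 and −0.01 for HK2. Leaving out Control 5 gave 0.23 for PFKL, 0.13 for ALDOA, 0.16 for TPI1 and 0.03 for ALDOC, and leaving out Control 1 gave 0.13 for TPI1 and 0.09 for ALDOC. In the RefSeq annotation of ARS-UCD2.0, 10 of the 33 members overlap another gene, with which they may share reads, since the strand setting of the counting is not known. HK1 overlaps HKDC1 and TACR2, PGK1 overlaps TAF9B, PFKFB3 overlaps PRKCQ, SLC16A3 overlaps CSNK1D, MPC2 overlaps ADCY10 and PDHA1 overlaps MAP3K15. ALDOA and SLC16A7 each overlap another protein-coding locus, and LDHA and SLC16A1 each a long non-coding RNA.

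In the payoff phase, 6 of 7 members had positive values and again none passed. GAPDH, the dehydrogenase that opens this phase, had 1745, 2813 and 5351 CPM in Nanoplastics and 945, 2330 and 3138 CPM in Control libraries. Nanoplastics 1, 2 and 5 lay above every Control library and Nanoplastics 3, 4 and 6 below the Control median, so the group fell into high and low libraries with none between. The log2 fold change was 0.54 (−0.15 to 1.22), and 0.30 without Nanoplastics 1. ENO1, the general enolase, had 1541, 2217 and 3993 CPM in Nanoplastics and 940, 2001 and 2568 CPM in Control libraries, with the same 3 Nanoplastics libraries above Control. Its log2 fold change was 0.42 (−0.15 to 0.98), and 0.21 without Nanoplastics 1. PGK1 and PKM, the kinases of the phase that make ATP, had 0.30 (−0.15 to 0.74) and 0.21 (−0.13 to 0.56), and the mutase PGAM1 had 0.20 (−0.12 to 0.53). ENO2, the enolase known from neurons, had 0.01 (−0.21 to 0.23). The muscle-type ENO3 had the only negative value of the phase, at −0.13 (−0.36 to 0.11). Without Nanoplastics 1 the values were 0.17 for PGK1, 0.10 for PKM, 0.08 for PGAM1 and −0.07 for ENO3. Leaving out Control 5 gave 0.18 for PGK1, 0.13 for PKM and 0.12 for PGAM1, leaving out Control 1 gave 0.18 for PGK1 and 0.13 for PGAM1, and leaving out Nanoplastics 5 gave −0.08 for ENO3. Processed copies of several of these genes, GAPDH above all, occur in mammalian genomes and could share reads with them.

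At the lactate step, LDHA, whose subunit favours reduction of pyruvate to lactate, had 447, 788 and 1485 CPM in Nanoplastics and 337, 643 and 980 CPM in Control libraries. The groups overlapped over most of their range. Its log2 fold change was 0.39 (−0.27 to 1.06), 0.15 without Nanoplastics 1 and 0.26 without Control 1. LDHB, whose subunit favours the reverse reaction, spanned only 237 to 292 CPM in Nanoplastics and 256 to 323 CPM in Control libraries. Its log2 fold change was −0.03, and the interval, −0.18 to 0.12, was narrower than that of LDHA.

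The PFKFB enzymes make and degrade the fructose bisphosphate that activates phosphofructokinase. PFKFB3, the member with the strongest kinase activity, had 54.0, 71.9 and 96.3 CPM in Nanoplastics and 45.3, 69.6 and 97.0 CPM in Control libraries, which overlap nearly completely. PFKFB2 had a log2 fold change of −0.12 (−0.33 to 0.09; −0.07 without Control 3) and PFKFB4 one of −0.07 (−0.26 to 0.13). PFKFB1, the liver form, had at most 0.215 CPM in a Nanoplastics and 0.182 CPM in a Control library and was not tested.

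The pyruvate dehydrogenase kinases switch off entry into the citric acid cycle. PDK1, a hypoxia-inducible form, had 50.8, 106 and 237 CPM in Nanoplastics and 47.1, 79.4 and 131 CPM in Control libraries. Nanoplastics 1, 2 and 5 were above every Control library and Nanoplastics 3, 4 and 6 below the Control median. The log2 fold change was 0.45 (−0.30 to 1.19), and 0.11 without Nanoplastics 1. PDK3 was nearly constant, at 89.0 to 103 CPM in Nanoplastics and 92.2 to 97.6 CPM in Control libraries, with a value of 0.01 (−0.11 to 0.12). PDK4, induced by fasting and glucocorticoids in other tissues, had 0.10 (−0.07 to 0.26; 0.05 without Nanoplastics 5), and PDK2, the widely expressed form, −0.04 (−0.23 to 0.16).

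Of the monocarboxylate transporters, SLC16A3, the exporter of lactate from glycolytic cells, varied most of all members. It had 48.5, 107 and 261 CPM in Nanoplastics and 29.6, 95.1 and 172 CPM in Control libraries. Only Nanoplastics 1 stood above every Control library. The log2 fold change was 0.45 with an interval of −0.51 to 1.41. It was 0.08 without Nanoplastics 1, 0.26 without Control 1, 0.27 without Control 5 and 0.74 without Control 2. SLC16A1, the widely expressed transporter, stayed between 98.7 and 123 CPM in Nanoplastics and 104 and 122 CPM in Control libraries. Its value was 0.02 (−0.11 to 0.16). SLC16A7, a high-affinity pyruvate transporter, reached at most 0.829 CPM in a Nanoplastics and 0.473 CPM in a Control library and was not tested.

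The genes of mitochondrial pyruvate entry varied little. MPC1 and MPC2 form the pyruvate carrier, and PDHA1 and PDHB are subunits of the pyruvate dehydrogenase that the kinases act on. MPC1 had 20.1, 22.0 and 26.9 CPM in Nanoplastics and 19.2, 19.9 and 24.0 CPM in Control libraries. It was the only member for which every one of the 6 Nanoplastics libraries lay above the Control median, beside 3.32% of all genes tested, and its log2 fold change was 0.11 (−0.07 to 0.29), and 0.05 without Nanoplastics 1. MPC2 had −0.13 (−0.30 to 0.04), the opposite sign to its partner. PDHA1 had −0.02 (−0.16 to 0.11) and PDHB 0.09 (−0.05 to 0.23; 0.05 without Nanoplastics 6).

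Ratios between members within a library asked whether the balance of isoforms or of lactate formation and pyruvate entry differed between the groups. A plain ratio of CPM does not depend on library scaling. The log2 ratios tested held a pseudocount of 1 CPM, which leaves some dependence for genes of low CPM. A ratio of CPM also carries the difference in transcript length, so its size is read across libraries only. The LDHA/LDHB ratio was 1.86, 2.77 and 5.09 (lowest, median, highest) in Nanoplastics and 1.08, 2.44 and 3.56 in Control libraries. The difference of the mean log2 ratio was 0.40, with a two-sided exact permutation p of 0.314 and 0.60 after Benjamini-Hochberg adjustment over 12 ratios. The PDK1/PDHA1 ratio, kinase over target, was 0.555, 1.24 and 2.90 in Nanoplastics and 0.528, 0.888 and 1.64 in Control libraries, with a difference of 0.34 (exact permutation p = 0.465, adjusted 0.60). The SLC16A3/SLC16A1 ratio was 0.459, 0.979 and 2.13 in Nanoplastics and 0.284, 0.857 and 1.62 in Control libraries (difference 0.42, exact permutation p = 0.468, adjusted 0.60). By contrast the HK2/HK1 ratio was held within 5.51 to 6.84 in Nanoplastics and 5.32 to 7.02 in Control libraries, with a difference of −0.01 (exact permutation p = 0.892, adjusted 0.892). ALDOC/ALDOA was likewise narrow in Control libraries, at 0.0577 to 0.0631, and reached from 0.0454 to 0.0679 in Nanoplastics libraries. The smallest exact permutation p of the 12 ratios was 0.201, for ENO2/ENO1, and 0 ratios passed. Several of these differences moved when 1 library was left out. That of PDK1/PDHA1 was 0.08 without Nanoplastics 1 and 0.55 without Nanoplastics 3, and that of SLC16A3/SLC16A1 was 0.17 without Control 1 and 0.66 without Control 2. That of LDHA/LDHB was 0.23 without Nanoplastics 1, 0.24 without Control 1 and 0.21 without Control 5.

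**Figure D3:**
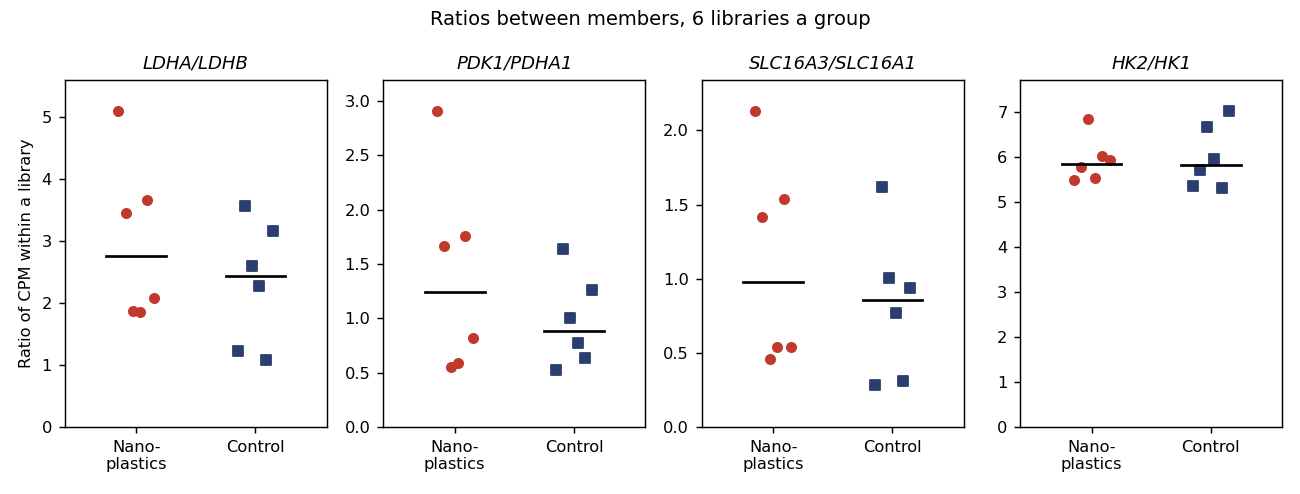
Ratio of CPM within a library for 4 pairs of members; points are libraries, 6 a group, and lines are group medians. LDHA/LDHB, PDK1/PDHA1 and SLC16A3/SLC16A1 spread widely within both groups and overlap between them, while HK2/HK1 stays between 5.32 and 7.02 in all libraries.

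The spread between libraries of a group was large for many members. The SD of log2 CPM about the group means had a median of 0.31 over the 31 members and 0.18 over all tested genes, and 20 members were above the latter. It was 1.00 for SLC16A3, higher than in 99.4% of tested genes, 0.75 for PDK1, 0.70 for GAPDH and 0.67 for LDHA. At the other end, PDK3 had 0.07, below all but 2.30% of tested genes, PDHB and PDHA1 each had 0.09, and SLC16A1 had 0.10. PDK1 and PDK3, and likewise SLC16A3 and SLC16A1, thus stood near opposite ends of the distribution although they share a reaction.

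To describe what the variable members followed, each was set against VEGFA, the secreted angiogenic factor and oxygen-response gene outside the member list, which was known from earlier results of these data to vary widely. VEGFA had 263, 861 and 2036 CPM (lowest, median, highest) in Nanoplastics and 108, 531 and 1199 CPM in Control libraries, and its own log2 fold change between the groups was 0.75 (−0.55 to 2.05, edgeR adjusted p = 0.999). An edgeR model with the group and the log2 CPM of VEGFA gave, for every gene, the log2 change per doubling of VEGFA at equal group, called the slope. In it 17 of the 31 members rose with VEGFA and 1 fell at an adjusted p under 0.05, beside 7.13% and 3.48% of 12310 genes. The 13 others had slopes between −0.05 and 0.06. Each of the 17 was highest in Nanoplastics 1 (15 genes) or Control 2 (2 genes) and lowest in Control 5 (10 genes) or Control 1 (7 genes). VEGFA and the members were read in the same libraries, so a slope describes how they vary together and has no direction of effect. The fit took the 12 libraries as independent, although they came from 3 batches that could not be assigned. Its p-values therefore do not separate batch from other spread.

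The steepest slope was that of the lactate exporter SLC16A3, 0.71 (SE 0.03, adjusted p = 2.58e-09), with the smallest p of all genes tested. PDK1 followed at 0.50 (SE 0.05, adjusted p = 4.33e-06), GAPDH at 0.50 (SE 0.02, 2.66e-09) and LDHA at 0.47 (SE 0.03, 2.04e-08). From the lowest to the highest of the 12 libraries SLC16A3 spanned 8.83-fold, GAPDH 5.66-fold, PDK1 5.03-fold and LDHA 4.40-fold. Of the preparatory enzymes 8 of 9 rose with VEGFA. PFKL had the steepest slope among them at 0.44 (SE 0.02), GPI had 0.35 and TPI1 0.33, and the hexokinases HK2 and HK1 had 0.22 and 0.20. PFKM, with a slope of 0.05 (SE 0.04, adjusted p = 0.547), did not pass. In the payoff phase ENO1 (0.40), PGK1 (0.31), PKM (0.23) and PGAM1 (0.22) rose with GAPDH, each with an adjusted p of 1.15e-05 or less in edgeR.

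**Figure D4:**
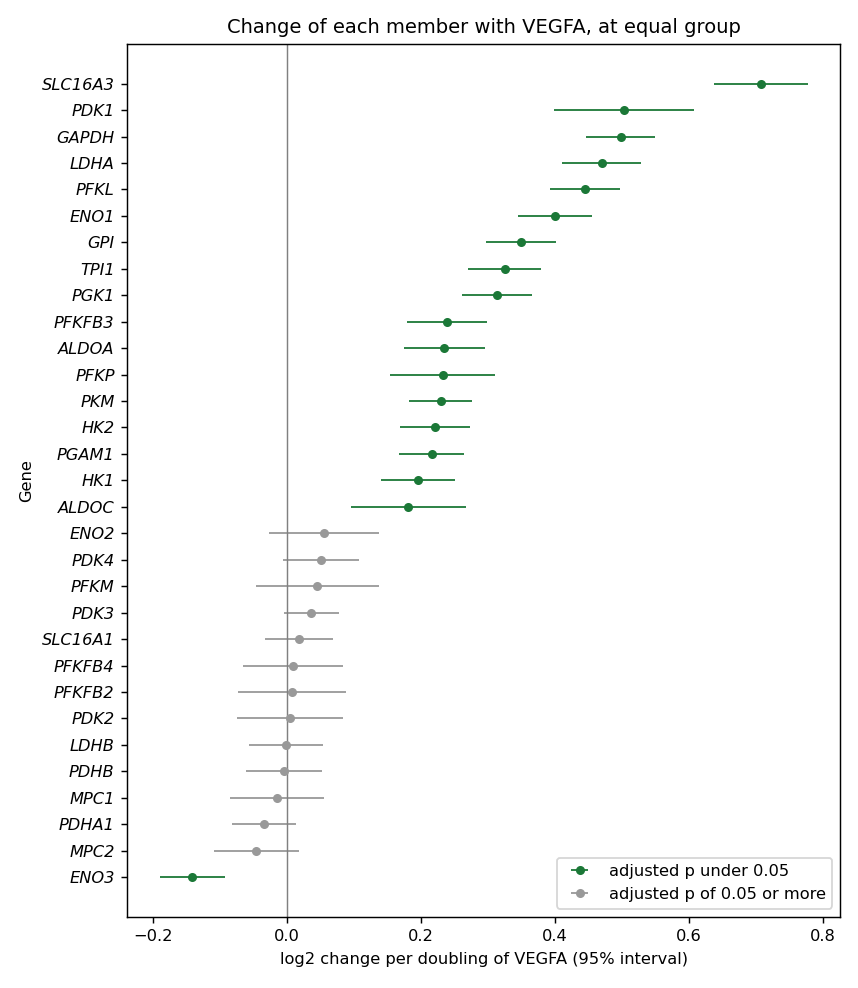
Log2 change of each tested member per doubling of VEGFA at equal group, from edgeR (point) with its 95% interval (bar), over 12 libraries, sorted by size and coloured by whether the adjusted p over all genes was under 0.05. The 17 positive slopes that passed run from 0.18 to 0.71, ENO3 is at −0.14, and the other 13 lie near 0.

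Several families of enzymes were divided, whereas the member hexokinases HK1 and HK2 and the aldolases ALDOA (0.24) and ALDOC (0.18) all rose with VEGFA. Of the enolases ENO1 rose, ENO2 had 0.06 (SE 0.04, adjusted p = 0.391), and ENO3 fell with VEGFA by 0.14 per doubling (SE 0.02, adjusted p = 9.09e-04). ENO3 was lowest, at 51.5, 52.1 and 58.3 CPM, in Nanoplastics 1, 5 and 2, and highest, at 80.7 CPM, in Control 5. Of the lactate dehydrogenases LDHA rose, and LDHB had a slope of −0.00 with an interval of −0.06 to 0.05. Of the kinases PDK1 rose, while PDK2 had 0.00 (−0.07 to 0.08), PDK3 0.04 (−0.00 to 0.08) and PDK4 0.05 (−0.01 to 0.11). Of the transporters SLC16A3 rose and SLC16A1 had 0.02 (−0.03 to 0.07). Of the PFKFB enzymes PFKFB3 rose by 0.24 (SE 0.03), with PFKFB2 and PFKFB4 each at 0.01. All 4 genes of mitochondrial pyruvate entry stayed near 0: MPC1 had −0.01, MPC2 −0.05, PDHA1 −0.03 and PDHB −0.00, with adjusted p-values in edgeR of 0.359 to 0.953.

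**Figure D5:**
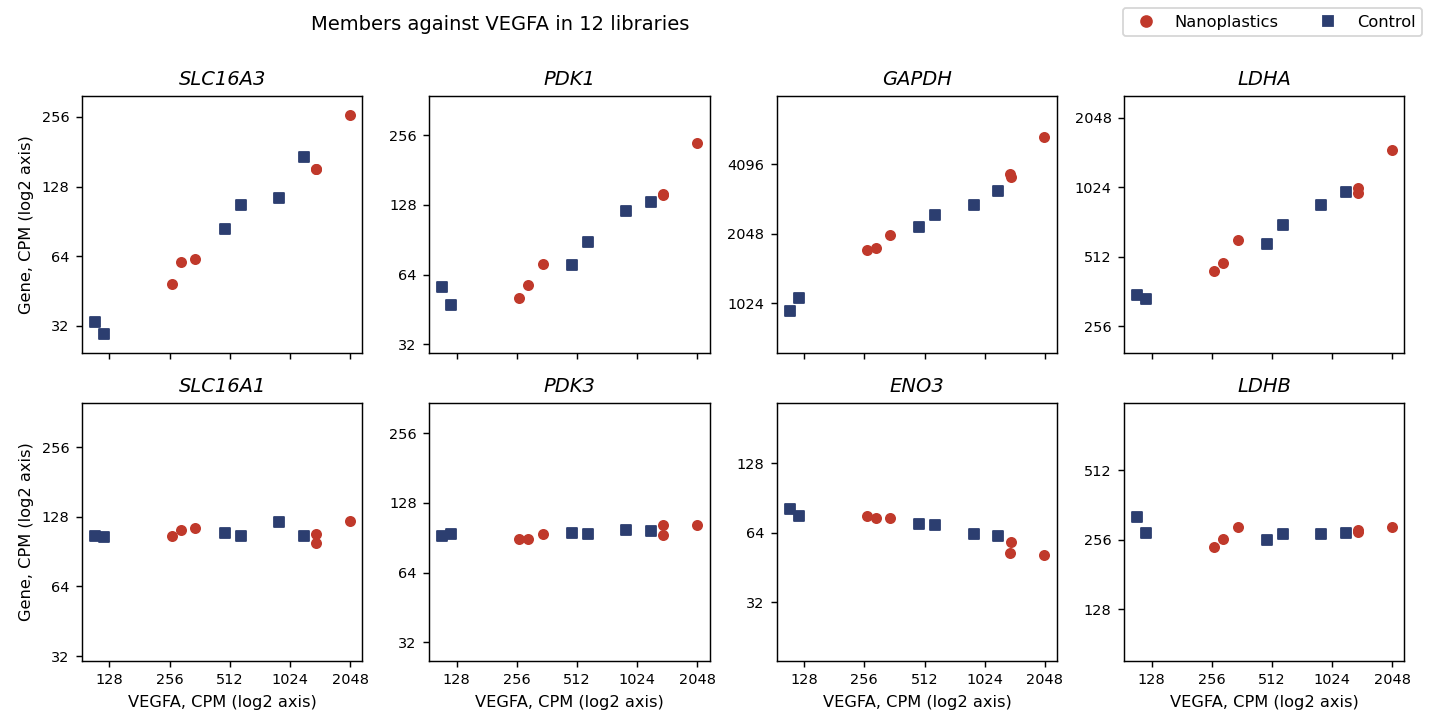
CPM of 8 members against CPM of VEGFA in 12 libraries, both on log2 axes; circles are Nanoplastics and squares Control, and the y axes span the same number of doublings. SLC16A3, PDK1, GAPDH and LDHA climb with VEGFA in both groups along one band, SLC16A1, PDK3 and LDHB are nearly level, and ENO3 declines.

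The slopes were also estimated in each group alone. In the 6 Nanoplastics libraries 17 members passed, beside 16% of all genes in either direction, and in the 6 Control libraries 15, beside 1.11%, all of them among the 18 that passed over both groups. GAPDH had a slope of 0.50 in Nanoplastics and 0.49 in Control libraries, and SLC16A3 one of 0.72 in Nanoplastics and 0.69 in Control libraries. LDHA had 0.50 in Nanoplastics and 0.44 in Control libraries, and PDK1 0.65 in Nanoplastics and 0.38 in Control libraries. ALDOC, with 0.18 (SE 0.04, edgeR adjusted p = 0.00876) over both groups, had 0.06 in Nanoplastics (edgeR adjusted p = 0.304) and 0.28 in Control libraries (adjusted p = 0.00518). It also did not pass without Control 1 and Control 5, the libraries farthest from the median of VEGFA (0.08, adjusted p = 0.15). HK1, PFKP and ENO3 passed in Nanoplastics libraries and not in Control libraries, where their slopes were 0.15, 0.15 and −0.10 (edgeR adjusted p = 0.078, 0.0695 and 0.313). Whether a slope differed between the groups was not tested. With VEGFA in the model, the difference between Nanoplastics and Control had a median log2 value of 0.01 over the members, 18 of 31 were positive, and 0 passed in edgeR. The smallest unadjusted edgeR p of a member in that fit was 0.0269, for GAPDH at 0.15. VEGFA was read after exposure and itself had a positive log2 fold change of 0.75. Holding it equal can therefore remove part of a group difference, so this fit does not show whether the groups differ.

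Markers of cell types were read for the same slope, beside 7.13% of all genes that rose and 3.48% that fell. Of the red blood cell markers HBA and HBM were expressed enough to test, and both rose with VEGFA, with slopes of 2.01 (SE 0.11, edgeR adjusted p = 1.06e-08) and 1.78 (SE 0.21, 3.52e-05). The 8 genes of that list summed to 3.74 to 354 CPM in Nanoplastics and 2.68 to 104 CPM in Control libraries, and HBB and SLC4A1 were at 0 in every library. Of 11 tested oocyte markers 2 fell with VEGFA, DPPA3 by 0.16 and KPNA7 by 0.13 per doubling (edgeR adjusted p = 0.00192 and 0.0277). The others were not called and had slopes of both signs, such as 0.25 for ZP3 and −0.14 for BMP15. The median slope of the oocyte list was −0.05. Of 15 tested cumulus and granulosa markers NR5A2 alone was called, at 0.11 (adjusted p = 0.0278), a share near that of all genes. DCN, of the theca and stroma list, rose by 0.21 (edgeR adjusted p = 0.00157), the only call among 7 tested. In that list LUM averaged 338.1 CPM in Nanoplastics and 316.6 CPM in Control libraries. INSL3 averaged 154.6 CPM in Nanoplastics and 149.8 CPM in Control libraries, and CYP17A1 had 6 reads over all libraries. The list, mostly through LUM and INSL3, summed to 464 to 652 CPM in Nanoplastics and 397 to 591 CPM in Control libraries. Between the groups 3 of its genes, COL1A2, COL3A1 and COL6A3, had an unadjusted edgeR p under 0.05 with higher values in Nanoplastics (log2 fold changes 2.19, 1.06 and 1.88), none passed after adjustment, and their slopes on VEGFA were not called. These are low counts, and for COL1A2 and COL6A3 the medians were closer than the means. COL1A2 had a median of 0.942 CPM in Nanoplastics and 0.685 CPM in Control libraries. Its mean was 4.26 ± 6.01 CPM in Nanoplastics and 0.919 ± 0.701 CPM in Control libraries (SD, n = 6 each). COL6A3 had a median of 1.68 CPM in Nanoplastics and 1.16 CPM in Control libraries. Its mean was 3.61 ± 3.99 CPM in Nanoplastics and 0.956 ± 0.49 CPM in Control libraries. The medians of COL3A1 lay about as far apart as its means. It had a median of 5.085 CPM in Nanoplastics and 2.538 CPM in Control libraries. Its mean was 5.71 ± 4.20 CPM in Nanoplastics and 2.71 ± 1.71 CPM in Control libraries. The TMM scaling factor was lowest in Nanoplastics 1 at 0.929 and highest in Control 5 at 1.04. With total counts and no further scaling, 18 members changed with VEGFA. In that setting 21 members had a positive group difference, with a median of 0.07. Beyond that, the part of these features in the slopes or group differences of the members was not tested.

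Genes around the core pathway were described from lists chosen for their function. In the comparison of Nanoplastics with Control, 0 of their 65 tested genes passed in edgeR and 0 had an unadjusted p under 0.05. Of the glycogen genes 9 of 14 were positive (median 0.01), of the citric acid cycle 5 of 13 (−0.01), and of the NADH shuttles 1 of 9 (−0.04). Of the other subunits and regulators of pyruvate dehydrogenase 4 of 6 were positive (0.00), of gluconeogenesis and anaplerosis 5 of 8 (0.04), of other isozymes 5 of 11 (−0.01), and of transport partners 2 of 4 (−0.01). All genes tested had a median of 0.00.

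The most abundant gene of each list by CPM and the one with the smallest unadjusted edgeR p are given here, each with an adjusted p of 0.999 in edgeR. Among other isozymes these were ADPGK, an ADP-dependent glucokinase, at −0.01, and TIGAR, a fructose bisphosphatase, at −0.15. PDP1, the phosphatase that reactivates pyruvate dehydrogenase, was both in its list, at 0.20. Among transport partners they were BSG and SLC5A8. BSG, the chaperone that SLC16A1 and SLC16A3 need at the membrane, had 0.00. SLC5A8, a sodium-coupled monocarboxylate transporter with low counts, had 1.95 (95% interval −0.02 to 3.91). Pyruvate carboxylase PC, which makes oxaloacetate from pyruvate, had 0.11 and PCK2, a mitochondrial enzyme of gluconeogenesis, 0.22. Of the glycogen genes PHKA2, a regulatory subunit of phosphorylase kinase, had 0.02, and the branching enzyme GBE1 0.44. In the citric acid cycle the ligase subunit SUCLA2 had −0.01 and citrate synthase CS −0.09. The aspartate aminotransferases GOT2 and GOT1 of the malate-aspartate shuttle had −0.09 and −0.15.

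With VEGFA, 4 of the 14 tested glycogen genes rose, beside 7.13% of all genes: GYS1, the muscle-type glycogen synthase, at 0.55 (SE 0.05), GBE1 at 0.41 (SE 0.05), and the phosphorylases PYGL at 0.25 (SE 0.04) and PYGB at 0.11 (SE 0.03). Their edgeR adjusted p-values were 1.29e-06, 3.28e-05, 4.13e-04 and 0.0418. Enzymes of both glycogen synthesis and breakdown were thus among them, while PHKA2 had 0.05 (adjusted p = 0.266). Of the transport partners SLC5A8 had a slope of 1.81 (SE 0.15, adjusted p = 8.71e-07), whereas BSG had −0.01 (adjusted p = 0.763). The counts of SLC5A8 were low, with a median of 2.17 CPM in Nanoplastics and 0.598 CPM in Control libraries. Its mean was 4.05 ± 5.0 CPM in Nanoplastics and 1.05 ± 1.11 CPM in Control libraries (SD, n = 6 each). PDP1 rose by 0.11 (adjusted p = 0.0395). PCK2 (0.17) and FBP1 (0.26) of gluconeogenesis rose with adjusted p = 0.0317 and 0.044. PC had 0.10 (adjusted p = 0.112). ADPGK had −0.02 (adjusted p = 0.666).

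Few genes of the citric acid cycle and the NADH shuttles were called, all with negative slopes, beside 3.48% of all genes that fell. IDH3A, a subunit of the NAD-dependent isocitrate dehydrogenase, fell by 0.11 per doubling of VEGFA (SE 0.03, edgeR adjusted p = 0.0333), the only call among 13 tested genes of the cycle. GOT1 and GOT2 fell by 0.11 and 0.09 (adjusted p = 0.0332 and 0.0212), of 9 tested. SUCLA2 had −0.01 (adjusted p = 0.77).

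All 31 tested members stand in the authors' deposited table, with an adjusted p of 0.999928 for each. In the authors' deposited table GAPDH has a log2 fold change of 0.53, SLC16A3 and PDK1 0.45 and 0.44, LDHA 0.39, and ENO3 −0.13.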

How the data were processed

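Libraries from groups of 50 complexes were read paired-end at 150 bases, per the labels' protocols. The submitters' processing notes name STAR 2.5.4b, DESeq2 and Trim Galore 0.4.5 with no role for each. The counter, strand setting, genome build and annotation are not given there. The deposited counts were whole numbers per gene and library. The deposited log2 values equal log2 of the count minus one constant per library, with 0 set to 0.9 reads. Also deposited by the authors were, per the file headers, a p-value, an adjusted p-value and a log2 fold change per gene; 4 columns of other groups beside them were not used.

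Of 18057 gene rows 74 exact copies were dropped. Genes were filtered with filterByExpr (minimum count 10, minimum total 15), scaled by TMM and tested two-sided with edgeR 4.0.16 (glmQLFit, glmQLFTest) in R 4.3.3, with Benjamini-Hochberg adjustment over all genes tested. Log2 CPM used a prior count of 2, and log2 ratios a pseudocount of 1 CPM. The model for VEGFA held the group and its log2 CPM. The fits were run on simulated data in which genes varied independently, apart from the changes put in. Those runs do not show how the fits behave where many genes vary together. Intervals are those of the fitted model, with a median half-width of 0.22 (log2) over all genes. The alternatives are given in the closing section, with DESeq2 1.42.0, limma 3.58.1 and Python 3.11.15.

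The members, lists, ratios and VEGFA were chosen with earlier results of these data known. All members are named; of each list, those that passed (1 is not reported here), or else the most abundant tested gene and that with the smallest p; outside the lists, the 8 genes most correlated with LDHA and the 8 with PDHA1. Markers and COL genes of other cell types were named after their values were seen. Every pair of libraries within a group differed beyond counting noise (chi-square per degree of freedom at least 5.62). P-values measure the spread between these samples, in which batches are mixed. Same-numbered libraries did not deviate together (r from −0.26 to 0.43, over 0.1 in 2 of 6 pairs), so numbers were not used as pairs.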

Additional observations from a re-analysis of the deposited data

Results flagged for a closer look

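For the 31 tested members and the 12 ratios, Dixon's 95% limit was used to ask whether 1 of the 6 libraries in a group stood apart from the rest. It did in 3 of 86 sets of values, and chance alone gives about 1 in 20, or 4.3 here. LDHB had a log2 CPM of 8.334 in Control 5, and at most 8.10 in the other Control libraries. SLC16A1 had 6.926 in Control 6, and 6.71 to 6.76 in the other Control libraries. MPC2 had 4.76 in Nanoplastics 6, and 4.40 to 4.51 in the other Nanoplastics libraries.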

How the results depend on the processing

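No member was called between Nanoplastics and Control under other scalings, no filter, DESeq2, limma-voom, a replicate block, a threshold of 0.1, VEGFA as a covariate or with any library left out (0 to 0 members, smallest adjusted p 0.933). The number of ratios that passed was 0 in every setting run. The number of members changing with VEGFA was 18 with each library left out in turn, and with total-count scaling, limma-voom, no group term or a replicate block. It was 17 without Control 1 and 5, 17 in Nanoplastics and 15 in Control libraries alone. Added after the data were seen, ADM in place of VEGFA gave 18, as did leaving out Nanoplastics 1 and Control 5. Over all genes the count was 1306, and with a library left out it ran from 656 (Nanoplastics 1) to 1878 (Control 5), with 817 without Control 2, 841 without Nanoplastics 4 and 864 without Nanoplastics 6. It was 2478 without Control 1 and 5, 1967 in Nanoplastics and 137 in Control libraries alone. The replicate block changed no call of a member, and 1 of 6 libraries correlated best with its own number.

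Signs changed only among values that did not pass. Between the groups they changed with upper quartile scaling for ENO2 (−0.0027) and PDK3 (−0.0058), and with total counts for ENO2 (−0.026), PDK3 (−0.0303) and SLC16A1 (−0.0129). With VEGFA as a covariate they changed for HK1 (−0.0562), HK2 (−0.0889), ENO2 (−0.0318), PFKFB3 (−0.1121), PDK1 (−0.0619), PDK3 (−0.0244), SLC16A3 (−0.1036) and PDHA1 (0.0011). With a library left out the ranges that crossed 0 were −0.0469 to 0.0962 for ENO2, −0.0034 to 0.1896 for HK1, −0.0142 to 0.1429 for HK2, −0.0544 to 0.0135 for LDHB, −0.1035 to 0.0166 for PDK2, −0.0238 to 0.0178 for PDK3, −0.0367 to 0.1776 for PFKFB3, −0.0371 to 0.0886 for PFKM and −0.0136 to 0.0574 for SLC16A1. For log2 ratios they were −0.1128 to 0.0041 for ALDOC/ALDOA, −0.0542 to 0.0333 for HK2/HK1 and −0.0449 to 0.0827 for PFKFB4/PFKFB2.

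For slopes on VEGFA, signs changed with total counts for PFKFB2, PFKFB4, PDK2 and SLC16A1 (−0.0173, −0.0166, −0.0206 and −0.0088), with limma-voom for LDHB (0.0014), with the replicate block for PDHB (0.0015), and without the group for PFKFB2, MPC1 and PDHB (−0.0063, 0.0007 and 0.0066). They changed in Nanoplastics libraries alone for LDHB, PDK2, MPC1 and PDHB (0.0518, −0.0844, 0.0501 and 0.0163), in Control libraries alone for PFKFB2 and PFKFB4 (−0.0077 and −0.0189), and without Control 1 and 5 for ENO2, LDHB, PFKFB2, PDK2, MPC1 and PDHB (−0.0126, 0.0511, −0.0112, −0.0942, 0.0447 and 0.0085). Left-out ranges that crossed 0 were −0.0228 to 0.0271 for LDHB, −0.0499 to 0.005 for MPC1, −0.0207 to 0.0138 for PDHB, −0.0479 to 0.0219 for PDK2, −0.0231 to 0.0316 for PFKFB2 and −0.0206 to 0.0322 for PFKFB4. The cause was not tested. The intervals of the group differences of 11 of the 31 members, SLC16A3 with the widest, reach above 1.5-fold higher, so these data leave room for a change of that size.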

Other observations

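Beyond the members, the genes whose log2 CPM ran most like that of LDHA over the 12 libraries were the helicase gene DDX41 (Pearson r = 0.99), the peroxiredoxin PRDX4 (0.99), HEBP1 (0.99), VEGFA (0.98), the mitophagy receptor BNIP3 (0.98), the mannose phosphate isomerase MPI (0.98), the proton pump subunit ATP6V1B2 (0.98) and the secreted peptide ADM (0.98). Spearman's rho for these 8 was between 0.965 and 0.986. Among the members themselves SLC16A3 had r = 0.99 with LDHA, PKM 0.99, PFKL 0.98 and GAPDH 0.98, and ENO3 had r = −0.93. These are descriptions over the same libraries, chosen for their likeness, and carry no test.

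The genes most like PDHA1 were others: APMAP (r = 0.92), ALG3 (0.91), SLC7A6 (0.90), KIAA0753 (0.89), SLC25A23 (0.88), TSR1 (0.88), TMEM208 (0.87) and GFUS (0.86). PDHA1 itself had r = −0.60 with LDHA.

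GAPDH, often used as a reference transcript in quantitative PCR, spanned 3.07-fold within the Nanoplastics and 3.32-fold within the Control libraries. Over all 12 libraries PDK3 spanned 1.16-fold and PDHA1 1.21-fold.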
